A study of Mus musculus with 3 samples.

Results

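The 9 genes described here encode the 5 chains of the interleukin-17 (IL-17) receptor family (Il17ra, Il17rb, Il17rc, Il17rd and Il17re), the type 3 cytokines IL-17A, IL-17F and IL-22 (Il17a, Il17f and Il22), and the specific chain of the IL-23 receptor (Il23r). They were chosen by name, not by level, although earlier results of these data were known. Each had a row among the 27179 gene IDs of the table. They were measured by RNA sequencing in ILC2s, innate lymphocytes that make type 2 cytokines, sorted from 3 wild-type C57BL/6 mice. The sort kept CD45+, CD90.2+, CD127+ and KLRG1+ cells and removed those bearing B220, CD11b, CD11c, CD3, CD5, CD8 or NK1.1. All libraries belong to this 1 group, without a treatment or a control, and the sources used here do not give the tissue, age and sex of the mice or the hour of collection. Each library is called mouse 1, 2 or 3 after its sample number. The title of the study concerns the circadian clock of group 3 innate lymphoid cells (ILC3s) in the gut, the cells for which IL-17 and IL-22 are the typical products.

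The IL-17 receptor chains work in pairs. Il17ra encodes the shared chain. With the Il17rc product it binds IL-17A and IL-17F, with the Il17rb product it binds IL-25, and with the Il17re product it binds IL-17C, whereas the Il17rd product is an orphan regulator of growth factor and IL-17 signals. IL-25 is an alarmin released by tuft cells that acts on ILC2s. In ILC3s and Th17 cells IL-23, acting through the Il23r and Il12rb1 products, sustains the expression of IL-17 and IL-22.

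The libraries held 17819551 to 26374248 counts, and no molecular identifiers were used, so every interval below covers counting error only. Levels are CPM, that is counts scaled to a library of 1000000. Genes with at least 1 CPM in every library, 8461 IDs in all, are called detected. All 14 markers of ILC2s in the fixed list were detected, beside 31.1% of all gene IDs. Among them were Gata3, Areg, Il5 (1930 ± 545 CPM, SD, n = 3) and Il13 (24.1 ± 10.9). The list was drawn up with earlier results of these data known. Klrg1 and Il7r were also on it, but KLRG1 and CD127, the Il7r product, were sort criteria, so their detection was set in advance. Immunoglobulin transcripts made up 1.04%, 3.89% and 7.81% of the counts of mice 1, 2 and 3. The design text names 3 mice, with 1 library each, so the spread between libraries also holds variation from the sort and the amplification.

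The upstream sequences of Il17a, Il17f and Il17rb are shown because the first 2, neighbours on chromosome 1, had the same order of libraries, and Il17rb held nearly all the receptor transcript. The windows searched are the 250 bases before the transcription start used in the RefSeq promoter table (GRCm38.p6, the assembly behind mm10), read 5′ to 3′ on the strand of the gene. Bases that GENCODE M21 annotates as exon are not shown, which leaves 250 bases for Il17a, 224 for Il17f and 126 for Il17rb. The RefSeq gene spans of Il17f and Il22 begin farther upstream, 754 and 130 bases before these windows, so both windows lie inside the spans given below. Capitals mark matches to any of the 4 motifs searched on both strands. A core motif of nuclear receptors was searched as AGGTCA and the binding motif of STAT factors as TTCNNNGAA. The motif of the GATA-type factors was searched as AGATAA, and the core motif of the aryl hydrocarbon receptor as GCGTG. The matches in these windows do not overlap.
Il17a (chr1:20730655-20730904, plus strand): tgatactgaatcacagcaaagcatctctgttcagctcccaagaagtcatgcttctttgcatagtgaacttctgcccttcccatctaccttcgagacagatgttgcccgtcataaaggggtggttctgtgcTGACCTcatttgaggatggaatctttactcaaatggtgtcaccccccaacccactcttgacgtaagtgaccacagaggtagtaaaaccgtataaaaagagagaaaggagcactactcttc
Il17f (chr1:20784271-20784494, minus strand): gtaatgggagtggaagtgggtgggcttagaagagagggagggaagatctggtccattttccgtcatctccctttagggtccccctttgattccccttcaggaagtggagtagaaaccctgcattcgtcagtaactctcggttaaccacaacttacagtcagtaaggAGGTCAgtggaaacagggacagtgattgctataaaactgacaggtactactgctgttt
Il17rb (chr14:30008897-30009022, minus strand): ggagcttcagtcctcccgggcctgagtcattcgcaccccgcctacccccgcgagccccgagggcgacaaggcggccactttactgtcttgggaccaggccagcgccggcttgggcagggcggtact
The Il17a sequence held 1 nuclear receptor motif, on the opposite strand and beginning 120 bases before the start. The Il17f sequence held 1 on its own strand, 58 bases before the start. The Il17rb window held none, and its only match was 1 aryl hydrocarbon receptor core, 143 bases before the start and within the exon bases not shown, which belong to the neighbouring gene Chdh on the opposite strand. AGGTCA occurs in 14% of the 32851 promoter windows of the same length and GCGTG in 28.2%, so such matches are common and are given as a description. Of the 250 bases of the Il17rb window 72% were G or C, against 46% for Il17a, 47.2% for Il17f and a median of 52.4% over all windows. The Il23r window held 2 nuclear receptor motifs and the Il22 window held none but had 1 AGATAA, which occurs in 9.99% of windows.

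Of the 9 genes 5 were detected: Il17rb, Il17ra, Il17f, Il22 and Il17a. That is 55.6% of them, against 31.1% of all gene IDs in the table. All 3 cytokine genes were among the 5, but only 2 of the 5 receptor genes and not Il23r. At a minimum of 5 CPM, Il17rb, Il17f and Il22 were left.

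Il17rb, the IL-25-binding chain (gene ID 50905, chromosome 14, 29996168 to 30008896), was by far the most abundant of the 9 genes. It had 12444, 7350 and 14932 counts in mice 1, 2 and 3, which is 549, 418 and 573 CPM (mean 513 ± 83.3, SD, n = 3). The libraries lay close together, with the highest 1.37 times the lowest. Divided by its exon length in kilobases (kb), Il17rb had 148, 113 and 154 CPM per kb and ranked above 95% to 96.3% of the genes with counts in each library. Its exons overlap those of the antisense gene Actr8 by 141 bases, and reads there cannot be assigned to a strand. Actr8 itself had 4.85, 11 and 21.3 CPM, far below Il17rb.

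Il17ra, the chain that all these receptors share (gene ID 16172, chromosome 6, 120463181 to 120483731), was detected at a low level. It had 114, 156 and 130 counts, or 5.03, 8.87 and 4.99 CPM (mean 6.3 ± 2.23, SD, n = 3). Mouse 2 was highest, and mice 1 and 3 did not differ beyond counting error (95% Poisson intervals 4.15 to 6.04 and 4.17 to 5.92 CPM). Its transcript is long, with 8.66 kb of exon, so the level per kb was only 0.581, 1.02 and 0.576 CPM per kb.

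The 2 chains of the IL-25 receptor were therefore very unequal at the RNA level. Per kb of exon, Il17rb exceeded Il17ra 255-fold in mouse 1 (95% exact binomial interval on the pair of counts, 212 to 309), 110-fold in mouse 2 (93.9 to 130) and 268-fold in mouse 3 (226 to 321). On the log2(CPM per kb + 0.5) scale the mean difference was 6.83 ± 0.53 (SD, n = 3), higher in 3 of 3 libraries. The exact two-sided sign-flip permutation test gave p = 0.25, also after adjustment over 6 gene pairs, and 3 libraries cannot give less. The added 0.5 is close to the level of Il17ra itself and lowers this difference.

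The chains that pair with Il17ra for the other ligands were near or below the limit of detection. Il17rc, needed for the response to IL-17A and IL-17F (gene ID 171095, chromosome 6, 113471455 to 113483163), had 56, 2 and 9 counts, or 2.47, 0.114 and 0.345 CPM. Mouse 1 stood above the others, and its interval (1.87 to 3.21 CPM) did not overlap those of mouse 2 (0.0138 to 0.411) or mouse 3 (0.158 to 0.655). Without that library the gene had 11 counts in all.

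Il17re, the IL-17C receptor chain (gene ID 57890, chromosome 6, 113458699 to 113470758), lies 696 bases from Il17rc on the same strand. It had 0, 1 and 0 counts. A count of 0 was taken to allow up to 3 counts, which is 0.132, 0.171 and 0.115 CPM in mice 1, 2 and 3. The 95% Poisson intervals of 0 counts reach somewhat higher, to 0.163, 0.21 and 0.141 CPM. Il17rd (gene ID 171463, chromosome 14, 27038964 to 27107286) had 0, 0 and 6 counts, and mouse 3 alone gave a level, of 0.23 CPM.

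Per kb, Il17rb made up 99%, 99.1% and 99.5% of the summed level of the 5 receptor genes in mice 1, 2 and 3. Il17ra and Il17rc had no fixed order. In mouse 1 Il17ra was at 0.628 times the level of Il17rc per kb (95% exact interval 0.452 to 0.881), whereas in mouse 2 it was at 24.1 times (6.55 to 200, on 2 Il17rc counts) and in mouse 3 at 4.45 times (2.28 to 9.96). The mean log2 difference of 0.62 ± 0.95 (SD, n = 3) was smaller than its spread, with an exact sign-flip p of 0.5, and it was 1.32 with 0.1 added in place of 0.5.

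**Figure D1:**
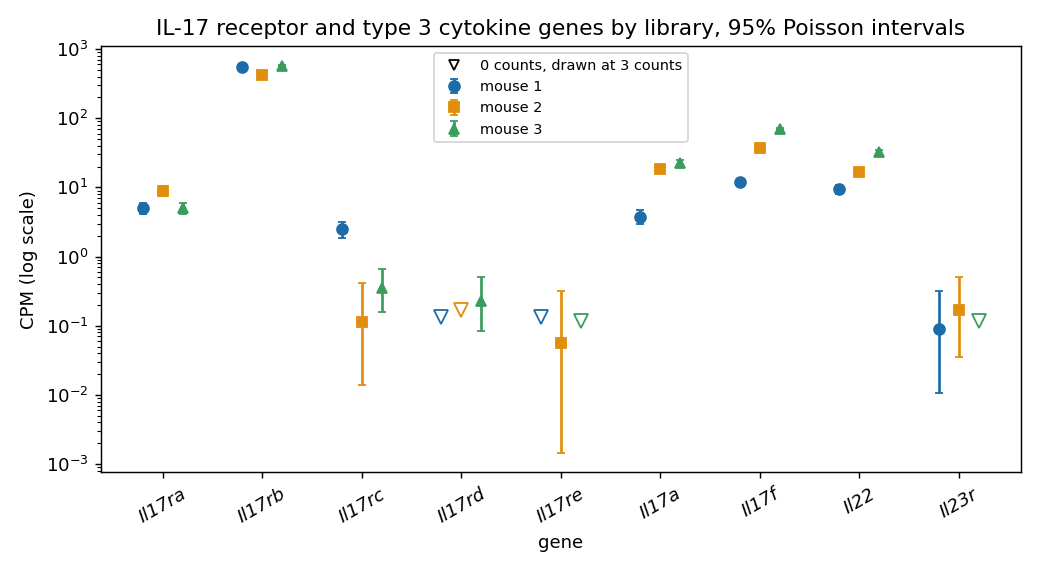
CPM of the 9 genes on a log axis, 1 symbol per library with its 95% Poisson interval, which covers counting error; open triangles mark libraries with 0 counts, drawn at the level of 3 counts. Il17rb lies between 418 and 573 CPM in all libraries, the 3 cytokine genes between 3.75 and 70, and Il17rd, Il17re and Il23r below 0.25 CPM.

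Among receptors for alarmins, Il17rb was also above the IL-33 receptor chain Il1rl1. Per kb it was 5.2, 8.12 and 9.1 times the level of Il1rl1 in mice 1, 2 and 3. The exact intervals of these ratios, 5.03 to 5.39, 7.7 to 8.56 and 8.75 to 9.46, did not overlap. The mean log2 difference was 2.83 ± 0.42 (SD, n = 3), in 3 of 3 libraries, with the smallest possible exact sign-flip p of 0.25. Without division by length it was 1.96. Crlf2, the specific chain of the TSLP receptor, had 4.23 ± 0.632 CPM per kb (n = 3), between Il17rb and Il17ra.

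The type 3 cytokine genes were all detected, and all were lowest in mouse 1 and highest in mouse 3. Il17f (gene ID 257630, chromosome 1, 20777146 to 20785274) had 267, 658 and 1824 counts, or 11.8, 37.4 and 70 CPM in mice 1, 2 and 3. Il17a, which encodes the founding member of the family (gene ID 16171, chromosome 1, 20730905 to 20734496), lies 42649 bases from Il17f and had 85, 329 and 592 counts, or 3.75, 18.7 and 22.7 CPM. Il22, whose product acts on epithelial cells (gene ID 50929, chromosome 10, 118204584 to 118210047), had 212, 293 and 859 counts, or 9.35, 16.7 and 32.9 CPM.

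The highest library exceeded the lowest 5.94-fold for Il17f, 6.05-fold for Il17a and 3.52-fold for Il22. The Poisson intervals of the 3 libraries did not overlap for Il17f (10.4 to 13.3, 34.6 to 40.4 and 66.8 to 73.2 CPM) or for Il22 (8.14 to 10.7, 14.8 to 18.7 and 30.8 to 35.2). For Il17a the intervals of mice 2 and 3 met just short of overlap (16.7 to 20.8 and 20.9 to 24.6), and mouse 1 was apart (3 to 4.64). Together the 3 genes had 24.9, 72.8 and 126 CPM, with a mean of 74.4 ± 50.4 (SD, n = 3). This was 0.00255%, 0.00718% and 0.0124% of the counts of each library.

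Il17f gave the largest part of this sum in each library. Il17f made up 47.3%, 51.4% and 55.7% of the counts of the 3 genes in mice 1, 2 and 3, Il22 37.6%, 22.9% and 26.2%, and Il17a 15.1%, 25.7% and 18.1%. Of the Il17a and Il17f counts, Il17f took 75.9%, 66.7% and 75.5% in mice 1, 2 and 3. The 95% Wilson intervals of these shares were 71.1% to 80%, 63.7% to 69.5% and 73.7% to 77.2%, so that mouse 2 lay below the others. The mean share was 72.7% ± 5.2 (SD, n = 3), and 60.8% when each gene was divided by its exon length.

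Per kb of exon, Il17f had 5.83, 18.5 and 34.6 CPM per kb, Il22 8.43, 15 and 29.7, and Il17a 3.2, 16 and 19.4. Il17f exceeded Il17a in 3 of 3 libraries, by 0.60 ± 0.34 on the log2 scale (SD, n = 3, exact sign-flip p = 0.25). Il17f and Il22 were level, with a mean log2 difference of 0.00 ± 0.44 (exact sign-flip p = 1.0), Il22 being higher in mouse 1 and Il17f in mice 2 and 3. The summed exon length of Il17f, 2.02 kb, includes alternative transcripts. With the length of the longest single transcript the difference was 1.35 over Il17a and 0.76 over Il22. The transcript of Il22 shares 41% of its 50-base windows with its neighbouring copy Iltifb, and reads from those windows could be split or dropped in counting. Iltifb had 0, 0 and 1 counts. Il17a and Il17f share no such window.

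**Figure D2:**
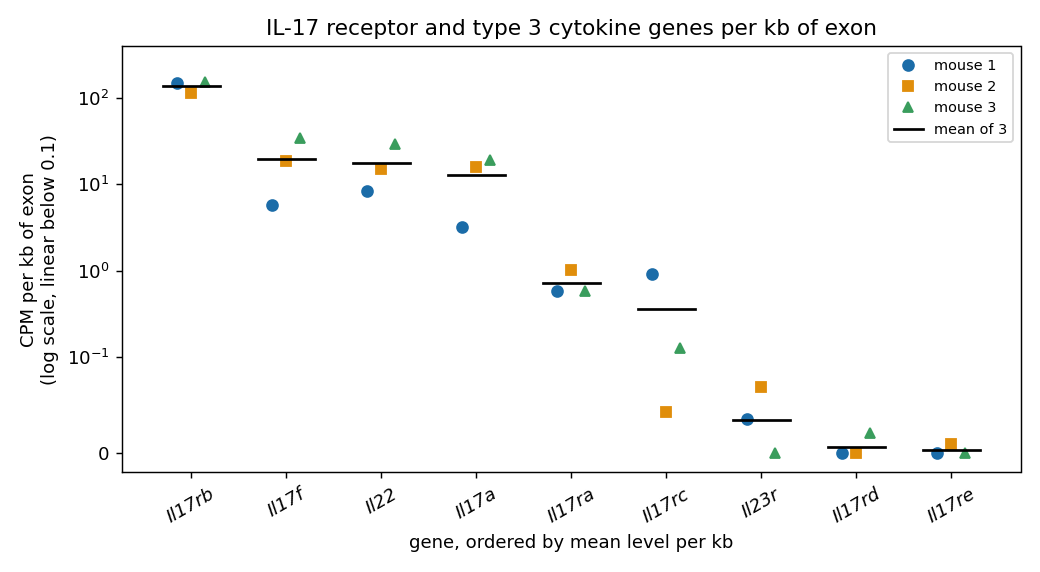
CPM per kb of exon of the 9 genes, on an axis that is logarithmic above 0.1 and linear below, with 1 symbol per library and a bar at the mean of 3. Il17rb stands alone at a mean of 138, the 3 cytokine genes follow at 12.9 to 19.6, and the other 5 genes have means of 0.727 or less.

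In the order of mean levels per kb, Il17rb came first (138 ± 22.5), then Il17f (19.6 ± 14.4), Il22 (17.7 ± 10.9), Il17a (12.9 ± 8.53), Il17ra (0.727 ± 0.258), Il17rc (0.366 ± 0.486), Il23r (0.0347 ± 0.0343), Il17rd (0.00698 ± 0.0121) and Il17re (0.00323 ± 0.0056; all SD, n = 3). Of the neighbours in this order, 2 pairs differed in the same direction in every library and by more than the spread of the log2 difference. These were Il17rb over Il17f, by 3.09 ± 1.29, and Il17a over Il17ra, by 3.14 ± 1.24. The other 6 neighbouring pairs did not differ beyond their spread.

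Il23r (gene ID 209590, chromosome 6, 67422932 to 67491855) had 2, 3 and 0 counts, or 0.0882, 0.171 and 0 CPM. All libraries were at or under the 3 counts that a count of 0 was taken to allow. Its partner Il12rb1, the chain shared with the IL-12 receptor, was detected with 272, 162 and 269 counts. Per kb, Il12rb1 was 82.4 times Il23r in mouse 1 (95% exact interval 22.6 to 684) and 32.7 times in mouse 2 (11 to 160). In mouse 3, where Il23r had no count, the interval began at 43.9. Il12rb1 was higher in 3 of 3 libraries, with the smallest possible exact sign-flip p of 0.25.

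In the list of the wider IL-17 and IL-23 pathway, most genes downstream of the receptors were detected and the ligand genes were not. Whether the pathway was active was not tested. Of 51 further pathway genes 37 were detected, or 72.5% beside the 31.1% of all gene IDs, of which 12087 had no counts in any library. None of the 7 ligand genes was detected, and Il17b, Il17c, Il25, Il23a and Il12b had no counts. Il17d had 6 counts, all in mouse 3, and Il12a had 1.

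Of 7 further receptor genes 4 were detected. Il10rb, the widely expressed chain that IL-22 and IL-10 receptors share, led with 69.8 ± 9.9 CPM (SD, n = 3), followed by Cd93 (30.1 ± 16), whose product has been described as an IL-17D receptor, and Il12rb1 (10.5 ± 1.4). Il22ra1, the specific chain of the IL-22 receptor, and Il22ra2, its soluble decoy, had no counts.

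Of 20 adaptor and kinase genes 18 were detected, led by Jak2 (433 ± 104 CPM, n = 3), the kinase of the IL-23 receptor chain, Jak1 (195 ± 18.7) and Chuk (102 ± 16.2), which encodes an IκB kinase. Card9 had no counts. All 9 RNA regulators and transcription factors of IL-17 signalling were detected, with Nfkbia (2065 ± 381), Nfkb1 (519 ± 105) and Nfkbiz (447 ± 102) on top; the last encodes IκBζ, a cofactor for IL-17 target genes. Of 8 negative regulators 6 were detected, headed by Tnfaip3 (835 ± 134), which encodes the ubiquitin-editing enzyme A20, Usp25 (68.2 ± 6.17), which encodes a deubiquitinase, and Zc3h12a (35.2 ± 10.2), which encodes the ribonuclease Regnase-1. Traf3ip2, which encodes ACT1, the adaptor that IL-17 receptors recruit, was detected at 34.7 ± 7.27 CPM; it was named after its value was seen.

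Of 23 regulators of the type 3 programme 20 were detected, or 87% beside the 31.1% of all gene IDs. Whether that programme was active was not tested. Id2 (7782 ± 1497 CPM, n = 3), Nfkbiz and Gata3 (438 ± 76.4), the regulator of ILC2s, were highest. Zbtb16, which encodes PLZF, had no counts.

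The spread of each gene between the libraries was then set against genes of the same abundance. In edgeR's quasi-likelihood fit of 9175 genes, 17 were more variable than their abundance trend at a Benjamini-Hochberg adjusted p under 0.05, which is 0.185% of those tested. Of the 9 genes 5 had enough counts to be tested and 0 passed. At an unadjusted p under 0.05 in edgeR there was 1 of the 5, Il17f, beside 404 of all 9175 genes, or 4.4%. After adjustment limma called 0 of them, beside 17 of all 9175 genes. DESeq2 marked 0 of them as dispersion outliers, beside 24 of all 9175.

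Il17f had a quasi-dispersion 2.95 above the trend on the log2 scale (edgeR adjusted p = 0.976), higher than 99.1% of the genes tested. Il17a was 1.85 above the trend and Il22 1.22 above it, with an edgeR adjusted p = 0.976 for each. Il17rb lay at -0.24 and Il17ra at -1.47 (edgeR adjusted p of 0.989 and 0.997). The median over all genes tested was -0.41. The test has little power with 3 libraries: in simulated data 9 of 100 genes with 1 library raised 8-fold were recovered, and 76 of 100 with 1 library raised 64-fold. The values depended on single libraries. Without mouse 1 the value of Il17a was -3.36, that of Il17f 0.92 and that of Il22 0.44. Without mouse 2 they were 2.84, 4.23 and 2.48. Without mouse 3 that of Il17f was 2.09 and that of Il22 -0.60.

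Of 37 pathway genes tested 0 passed and 3 had an unadjusted p under 0.05 in edgeR, beside the 4.4% of all genes tested. These were Btrc (58.5, 8.02 and 36.1 CPM in mice 1, 2 and 3), a ubiquitin ligase component, Tab3 (1.63, 30 and 8.71), an adaptor of the kinase TAK1, and Arid5a (33.4, 9.73 and 56.3), an RNA-binding regulator, named after their values were seen. The median log2 ratio to the trend over the 37 genes was -0.23, beside -0.41 over all genes tested. Of 20 type 3 regulators tested 0 passed and 1, Nfkbid (60.5, 36.1 and 111 CPM), had an unadjusted p under 0.05 in edgeR, and was likewise named after its value was seen; 1 of 20 is close to the share among all genes, and the median of the 20 was -0.07.

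**Figure D3:**
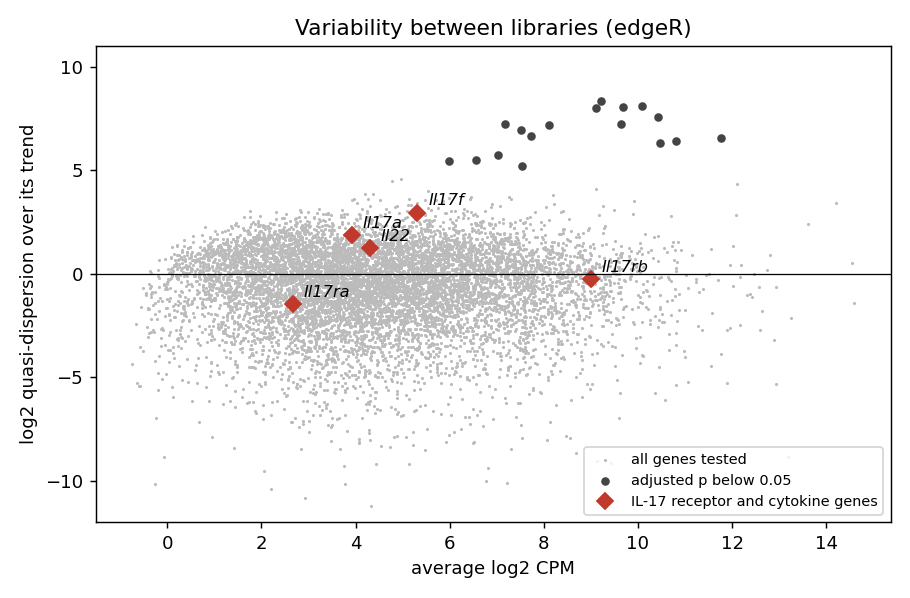
Quasi-dispersion of each of 9175 genes over its abundance trend (log2, edgeR) against average log2 CPM; dark points are the 17 genes at an adjusted p below 0.05 and diamonds the 5 IL-17 receptor and cytokine genes tested. Il17f, Il17a and Il22 lie above the line at 0 and Il17rb and Il17ra below it, all within the cloud of other genes.

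The order of the libraries shared by the 3 cytokine genes, lowest in mouse 1 and highest in mouse 3, was found in 1291 of the 9175 genes tested, or 14.1%. By the root mean square distance over 3 libraries of log2(CPM + 0.5) centred on each gene's mean, Il17a and Il17f lay 0.277 apart, Il17f and Il22 0.374, and Il17a and Il22 0.562. Of the 9174 other genes 41 lay within 0.25 of Il17f, 41 of Il17a and 202 of Il22, and none of the 3 cytokine genes was within 0.25 of another. The nearest genes were Ly6c2 (0.971, 3.92 and 7.75 CPM), Smyd5 and Lap3 for Il17f, Wdr53 (1.94, 10.2 and 12.4 CPM), Snx14 and Bcdin3d for Il17a, and Prkci (2.6, 4.95 and 10.1 CPM), Galnt10 and Sbf2 for Il22. For Il17rb, 2230 genes lay within 0.25, the nearest being Atad1, B3glct and Ptar1. With 3 libraries such likeness is a description only.

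Markers of other cells that make these cytokines were read in the same libraries, since in sorted bulk samples a few cells of another type and a low level in all cells cannot be told apart. By the same rule 31.1% of all gene IDs were detected, the share to set beside each list below. Of 11 ILC3 markers outside the 9 genes, 7 were detected, or 63.6%, and 3 had the library order of the cytokines. Their summed level was 1521, 1485 and 1645 CPM in mice 1, 2 and 3, with Ccr6 at 0 counts and Il1r1 at 2, 6 and 10 counts. Within this sum Ltb had the library order of the cytokines (621, 807 and 885 CPM), whereas Kit had the reverse order (362, 199 and 172). The summed ILC2 markers were highest in mouse 1 and lowest in mouse 3, with 31605, 28018 and 25932 CPM.

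Of 13 T cell markers 6 were detected, or 46.2%, and the sum was 714, 800 and 823 CPM. It was mostly Lat and Cd3g, whereas Cd4 had 1 count and Cd8a and Cd8b1 had 1 and 2. The sort selected against CD3 and CD8, so the low counts of Cd8a and Cd8b1 were in part set in advance. The sum and 3 of the 13 genes had the library order of the cytokines. These were Cd247, a T cell receptor signalling chain, with 0, 4 and 98 counts, Cd5, whose product the sort selected against, with 0, 1 and 50, and Cd6 with 13, 57 and 187. The other T cell markers did not have this order. Lat had 393, 364 and 455 CPM, Cd3g 265, 385 and 314, Cd28 29.6, 24.1 and 20.6, and Trac 12.9, 14.7 and 13. Cd3e fell from mouse 1 to mouse 3, with 9.26, 8.02 and 3.49 CPM, and Cd3d had 3.13, 1.19 and 1.57. Of 8 gamma-delta T cell markers 4 were detected, or 50%, with sums of 2264, 2699 and 1831 CPM, nearly all from the constant segments Tcrg-C1 and Tcrg-C4. Trdc, the delta constant region, had 9.71, 11.3 and 1.57 CPM and was lowest in mouse 3, where the cytokines were highest. Among genes of IL-17-producing gamma-delta T cells, Sox13, Blk and Scart2 had 0 counts, and Cd163l1 had 0, 0 and 30, all in mouse 3. Of 9 NK cell and ILC1 markers 2 were detected, with sums of 8.47, 244 and 55.4 CPM, highest in mouse 2. The sum was mostly Gzma (7.19, 229 and 48.2 CPM), which passed the variability test (edgeR adjusted p = 0.00563). Klrb1c, whose product NK1.1 the sort selected against, had 1, 115 and 77 counts and Prf1 0, 99 and 6, whereas Klra4 and Klra8 were at 0.

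The B and plasma cell list had the library order of the cytokines. Of its 12 genes 8 were detected and 8 were lowest in mouse 1 and highest in mouse 3, with sums of 12608, 34353 and 62919 CPM. Ms4a1 and Pax5 had 0 counts. Of 9 myeloid markers 1 was detected, with sums of 21.4, 37.8 and 26 CPM and with Adgre1, S100a8 and S100a9 at 0. Of 8 gut epithelial markers 1 was detected, with sums of 29.5, 9.9 and 25.8 CPM and with Cdh1, Muc2 and Fabp2 at 0. The part of other cells in the cytokine levels was not tested.

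**Figure D4:**
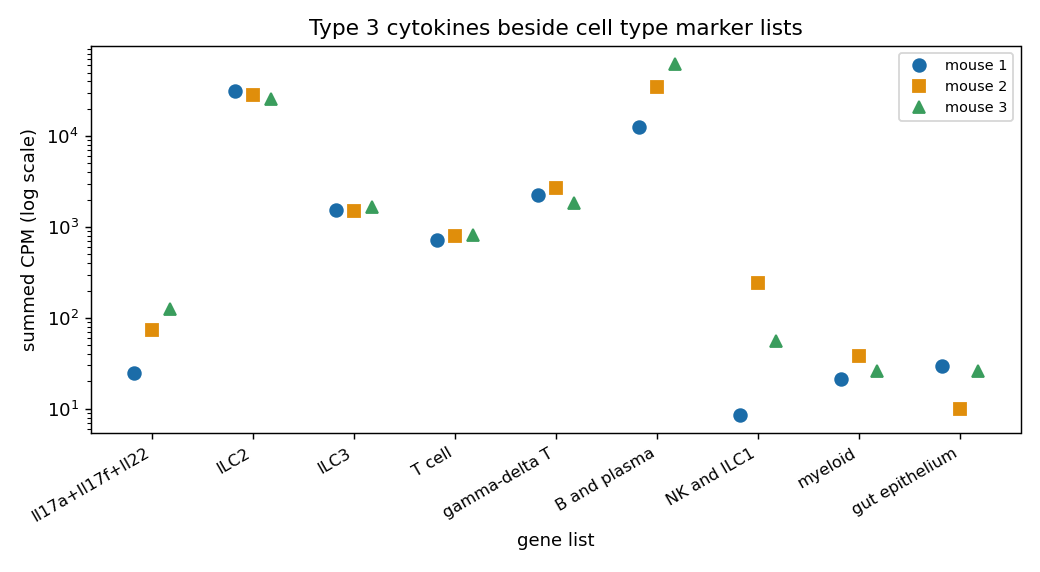
Summed CPM of Il17a, Il17f and Il22 and of 8 marker lists in each library, on a log axis, 1 symbol per mouse. The cytokines are at 24.9, 72.8 and 126 CPM in mice 1, 2 and 3, the B and plasma cell list and the T cell list (714, 800 and 823 CPM) have the same order, and the ILC3 list stays between 1485 and 1645 CPM. The sums hide differences between genes. Lat and Cd3g, most of the T cell sum, each lack this order, and in the ILC3 sum Ltb rises from mouse 1 to mouse 3 while Kit falls.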

How the data were processed

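The authors deposited raw read counts by Entrez gene ID, 1 column for each library, without normalization. The kit was a SMARTer Ultra Low Input kit, per the labels' protocols, and such kits do not mark strand. Per the submitters' processing notes, CASAVA 1.8.2, STAR 2.3.0 and mm10 were used. The sources used here do not give the counting program or the handling of reads with several matches. Of 27179 IDs, 25275 matched a symbol in RefSeq GRCm38.p6, the source of coordinates and promoters, and 24847 an exon length in GENCODE M21. Library totals were 22112425, 17819551 and 26374248.

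CPM used TMM-scaled library sizes (factors 1.03, 0.987 and 0.989; edgeR 4.0.16, R 4.3.3). Levels between genes were compared as CPM per kb of summed exon, with 0.5 added before log2. Variability was tested with an intercept-only glmQLFit on genes passing filterByExpr (minimum count 10), by an upper-tail F test of quasi-dispersion over its trend, adjusted over all genes at 0.05, and tested on simulated data. DESeq2 1.42.0 and limma 3.58.1 were alternatives. All 9 genes were named, with the 3 highest detected genes per pathway role, genes past the test or without counts, and the 3 nearest in pattern. The genes and lists were chosen with earlier results of these data known. Some genes of the lists are not reported here by name.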

Additional observations from a re-analysis of the deposited data

How the results depend on the processing

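The length of the longest transcript was chosen as a setting after the data were seen. No paired analysis was possible because all 3 libraries belong to 1 group. Of 84 comparisons of a main result with an alternative, 74 stayed within 1.5 times (counts) or 1 SD (values) and 10 did not. At a minimum of 5 CPM 3 of the 9 genes were detected in place of 5. Without division by length the log2 difference was 6.27 for Il17rb over Il17ra, 2.51 for Il17ra over Il17rc, 1.37 for Il17f over Il17a, 0.85 for Il17f over Il22 and 1.96 for Il17rb over Il1rl1. With the longest transcript it was 1.35 for Il17f over Il17a and 0.76 for Il17f over Il22. With 0.1 added in place of 0.5, Il17rb over Il17ra was 7.42 and Il17ra over Il17rc 1.32. When the immunoglobulin genes were left out of the library sizes, the summed cytokines were 77.8 CPM, a change of scaling only. Per kb the Il17f share was 60.8%. Without each library in turn, the difference of Il17rb over Il17ra was 6.66 to 7.14, of Il17ra over Il17rc 0.19 to 1.12, of Il17f over Il17a 0.49 to 0.80, of Il17f over Il22 -0.14 to 0.26 and of Il17rb over Il1rl1 2.67 to 3.06. The summed cytokines were 49.3 (without mouse 3) to 98 CPM (without mouse 1). None of the 9 genes passed the variability test under any of the 10 alternatives run, and adjusted p for the 5 genes tested in the main fit of edgeR was 0.723 or more throughout. Few genes of any kind passed. A robust prior in edgeR called 0 of all 9175 genes, and the fit without immunoglobulin genes called 1 of 9136. The other alternatives called between 13 of 9788 (without mouse 2) and 31 of 9841 genes (without mouse 1). Depth limits Il17re, Il17rd and Il23r to statements near 3 counts per library.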
